A study of Mus musculus with 6 samples.

Results

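The glutamate, GABA and glycine receptor genes were read from RNA-seq counts of mouse retina as a list of 48 genes whose symbols name a subunit of an AMPA, kainate, NMDA or delta glutamate receptor, a metabotropic glutamate receptor, or a GABA-A, GABA-B or glycine receptor. The list does not hold every gene of these families, and the metabotropic glutamate receptors and the GABA-A subunits in particular are covered in part. A count sum of 10 or more over the libraries was required, and 47 of the 48 genes, among 16904 genes tested of 24062 in the table, reached it. Gabra6, a GABA-A subunit best known from cerebellar granule cells, had 0 counts in every library, which allows up to 3 counts in each. Among the 47 genes the smallest count sum was 136, for Gabra5.

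The libraries came from whole retinae of mice labelled C57BL/6 at postnatal day 21. All 6 retinae carried Chx10-Cre, a floxed Rb1 (Rb lox/lox) and a germline deletion of p107 (p107-/-), and these are the only alleles given for the group of 3 called Rb1/p107 (DKO). The other group of 3, called Rb1/p107/Hells (TKO), was Hells lox/lox in addition. Both groups therefore lacked p107 (Rbl1) in every cell and lost Rb1 where the Cre was active, and only the TKO carried the floxed Hells, a chromatin remodeller. Chx10-Cre is active in retinal progenitor cells in a mosaic pattern, so each retina also held cells in which nothing was recombined. The comparison asks how the loss of Hells changed gene expression in retinae already without Rb1 and p107. No unmodified retina was analysed here, so every difference below is between mutant retinae.

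Neurons of the retina signal with glutamate along the path from photoreceptors through bipolar cells to ganglion cells, and with GABA or glycine sideways through horizontal and amacrine cells. AMPA, kainate and NMDA receptors are glutamate-gated cation channels, GABA-A and glycine receptors are chloride channels, and metabotropic glutamate and GABA-B receptors act through G proteins. Each channel is assembled from several subunits, and which subunit genes a neuron uses depends on its type and its age. The rho subunits form GABA-gated channels that are a hallmark of retinal bipolar cells.

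The libraries held between 10343907 and 14203098 counts. Hells, the gene that only the TKO should lose, was at 60.8, 68.4 and 83.5 normalized counts in the TKO retinae and at 678, 523 and 395 in the DKO retinae, and each library followed its label. All 10 markers of dividing cells, described below, were also lower in TKO, and their part in the Hells difference was not tested. Values of single retinae are given in the order of replicates 1, 2 and 3 here and below. Normalized counts are counts divided by the library size after TMM scaling, a correction for differences in RNA composition. Rb1, which both groups carry floxed, averaged 748 ± 66.0 normalized counts in TKO and 591 ± 23.5 in DKO (SD, n = 3 each), and Rbl1 had 20.3 ± 7.02 and 18.6 ± 4.87. The mean of Rb1 was thus higher in TKO. Whether the share of recombined cells differed between the groups was not tested. The labels do not say whether the retinae of a group came from separate mice. By Xist and Y-linked counts each group held male and female retinae, so not all retinae of a group came from the same mouse. The p-values weigh the difference between the groups against the spread between these retinae.

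Per kb of exon, the most abundant receptor gene was the rho subunit gene Gabrr1, with a mean of 567 normalized counts per kb over the 6 retinae. It was followed by Gabbr1, the subunit of the GABA-B receptor that binds GABA, at 463 per kb, by Gabrr2 at 440.2 per kb and by Gria4, an AMPA subunit, at 419 per kb. The values of these genes overlapped between retinae, so their order is not fixed. At the other end, Gabrb1, Grin2b and Grin2a lay at 3.91, 5.22 and 5.42 per kb. Inhibitory receptor genes made up most of the top of the ranking, and NMDA subunits other than Grin1, the obligatory one, lay in its lower part. Lengths are those of all annotated exons of a gene joined, so genes with long, little used exons rank too low.

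**Figure D1:**
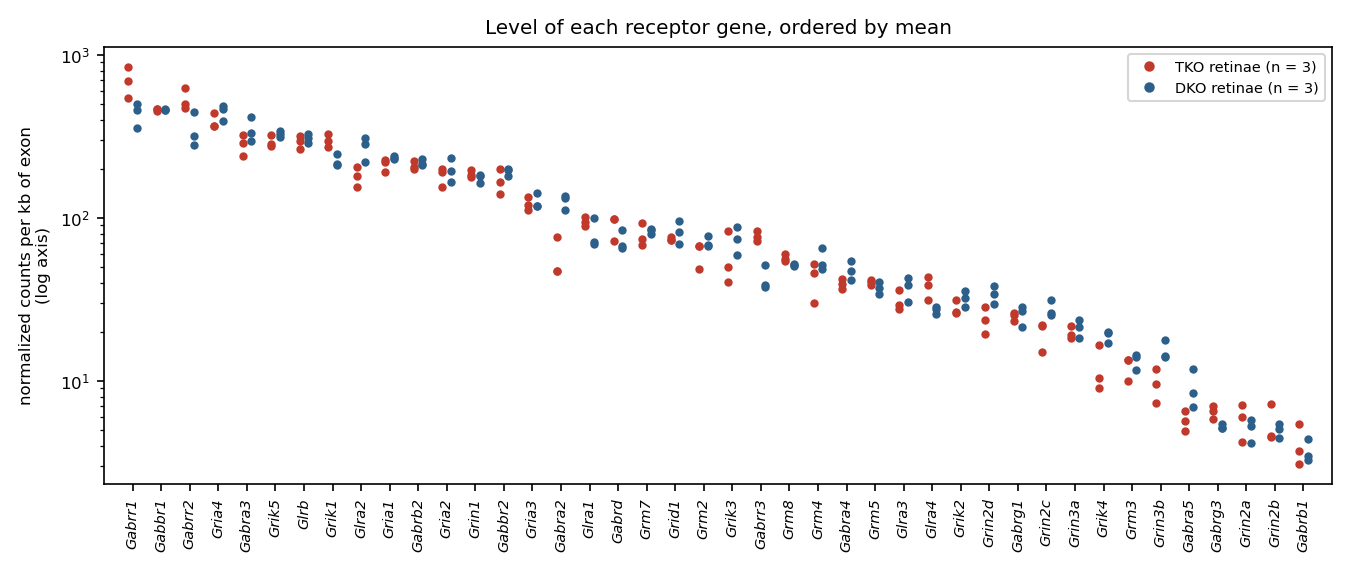
Normalized counts per kb of exon (log axis) of 42 receptor genes in each TKO (red) and DKO (blue) retina, ordered by their mean over the 6 retinae from Gabrr1 to Gabrb1. Points of the same gene lie close together for most genes, while the red points of Gabra2 lie below its blue points and those of Gabrr3 above.

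Most receptor genes differed little between TKO and DKO. By edgeR's quasi-likelihood test with Benjamini-Hochberg adjustment over all 16904 genes, 6 of the 47 (12.8%) passed an adjusted p of 0.05, beside 16.6% of all genes tested. Higher in TKO were 4 genes, among them Gabrr3, Gabrr1 and Grik1, where 7.35% of all genes were higher. Lower in TKO were 2 genes, Gabra2 and Glra2, where 9.2% of all genes were lower. The receptor genes were thus called no more often than genes at large. For 17 receptor genes the values of the TKO and DKO retinae were fully apart, as they were for 38.6% of all genes, with 8 receptor genes higher in TKO (18% of all genes) and 9 lower (20.6%). Before adjustment, 12 of the 47 had a p under 0.05, beside 33.1% of all genes. The study's criteria also ask for a log2 fold change of 1 or more in size and for a mean of 10 or more normalized counts. By all 3 criteria 1 receptor gene was called, Gabra2, which was lower in TKO, beside 6.35% of all genes, of which 4.38% lower and 1.97% higher.

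The median log2 fold change (TKO against DKO, used throughout) was -0.09 over the 47 genes and -0.01 over all genes tested, and 17 of the 47 fold changes were above 0 beside 48.8% of all genes. Of the 41 genes that did not pass, the fold changes lay between -0.68 and 0.61, and for 37 of them the 95% interval stayed within 1 on the log2 scale, which leaves out a change of more than 2-fold. For 20 of them it stayed within 0.5. Over all 47 receptor genes, called or not, 40 (85.1%) had an interval within 1 and 21 (44.7%) within 0.5. Over all genes tested, 66.4% had an interval within 1 and 38.5% within 0.5. Low counts widen the interval, and the smallest count sum was 136 among the receptor genes and 10 among all genes. In whole retina, fewer cells of a type and less RNA per cell cannot be told apart, and this holds for each difference below.

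**Figure D2:**
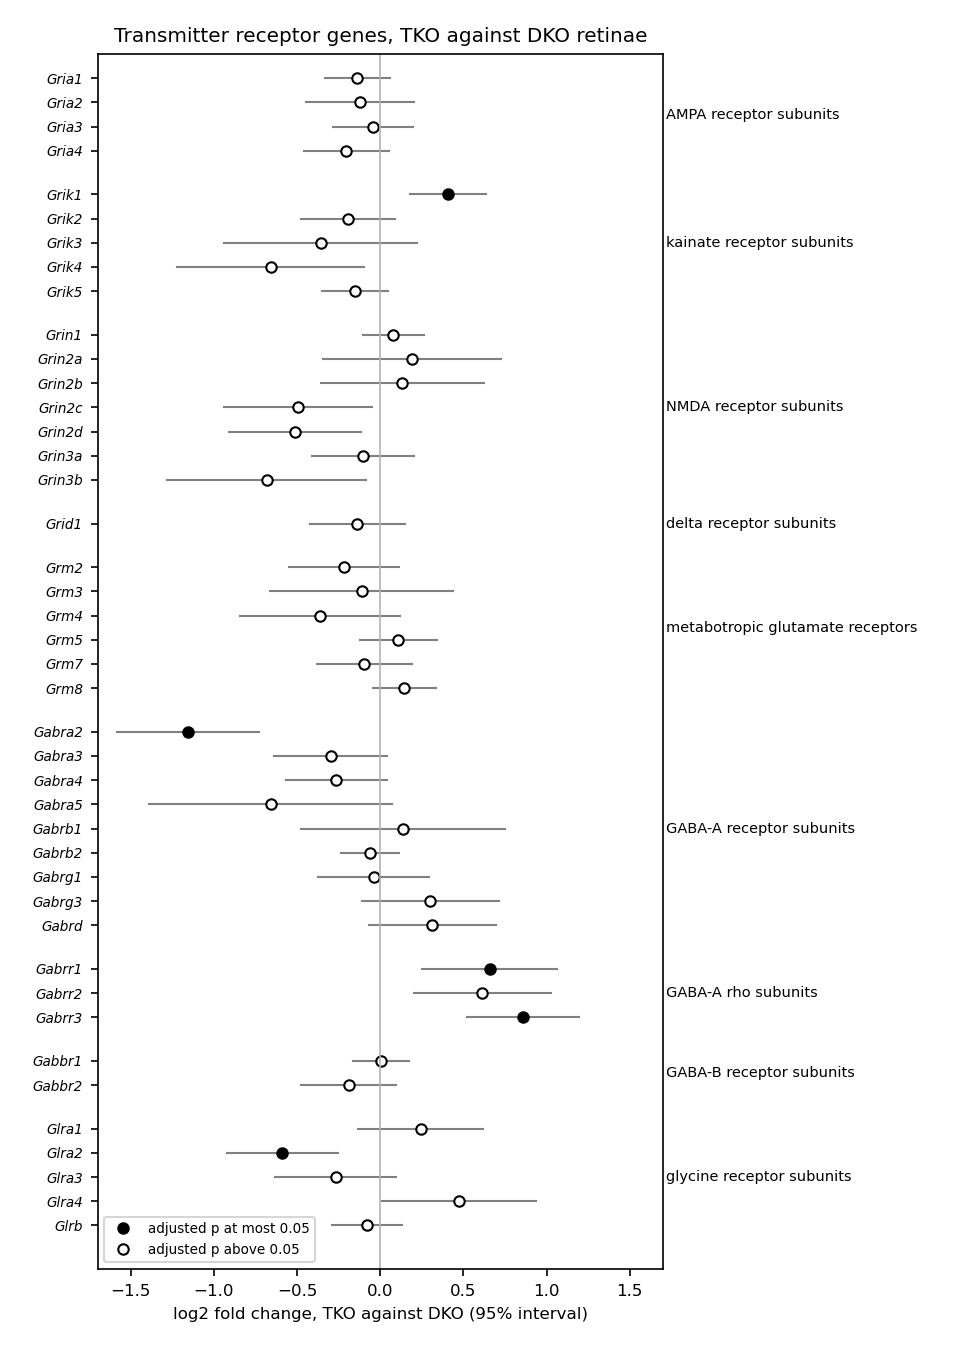
Log2 fold change of TKO against DKO for 42 of the receptor genes, grouped by receptor class, with the 95% interval as a line. Filled circles mark the 5 plotted genes that passed the threshold of 0.05, from Gabra2 at -1.16 to Gabrr3 at 0.86.

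AMPA receptors carry much of the fast glutamate response of amacrine and ganglion cells. None of the 4 AMPA subunit genes passed the test, and each had an interval within 0.5 on the log2 scale. Gria4 averaged 2457 ± 273 normalized counts in TKO and 2831 ± 294 in DKO (log2 fold change -0.20, standard error 0.111, adjusted p = 0.237 by edgeR). Gria1 had 1286 ± 115 and 1415 ± 28.6 (log2 fold change -0.14, standard error 0.0849). Gria2, whose product makes AMPA channels impermeable to calcium, and Gria3 lay at -0.12 and -0.04.

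Among the 5 kainate subunit genes, Grik1 rose. Its product forms the kainate receptors of OFF cone bipolar cells, and the gene lies on chromosome 16 from 87895900 to 88290265 (GRCm38, minus strand). Grik1 was at 2209.8, 1989 and 1831 normalized counts in the TKO retinae and at 1431, 1451 and 1666 in the DKO retinae. Every TKO retina lay above every DKO retina, although TKO replicate 3 and DKO replicate 3 stood nearest to each other. The log2 fold change was 0.41 (standard error 0.0991, adjusted p = 0.0277 by edgeR's quasi-likelihood test). The other kainate genes had fold changes below 0 and did not pass. Grik5, a subunit that needs a partner such as Grik1 or Grik2 to form a channel, averaged 1524 ± 133 normalized counts in TKO and 1692 ± 80.8 in DKO (log2 fold change -0.15, standard error 0.0872). Grik4, another subunit of that kind, had the lowest fold change of the class, -0.66 (adjusted p = 0.102), with groups that did not overlap.

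None of the 7 NMDA subunit genes passed. Grin1, without which no NMDA receptor forms, averaged 1808 ± 84.3 normalized counts in TKO and 1713 ± 102 in DKO (log2 fold change 0.08, standard error 0.0798). Its exons share 1307 bp with an antisense gene, Grin1os, whose log2 fold change was 0.02, and since the strand setting of the counting is not given in the sources used here, reads of that stretch cannot be assigned to either gene. Grin2d came nearest to the threshold, with 158 ± 30.3 and 226 ± 27.3 normalized counts (log2 fold change -0.51, standard error 0.173, adjusted p = 0.0770). Its groups did not overlap. The same was true of Grin2c at -0.49 (adjusted p = 0.117) and of Grin3b at -0.68 (adjusted p = 0.110), a gene with 1059 bp of exon, 32.1% of its length, opposite to Tmem259. Without TKO replicate 3, Grin2d passed (adjusted p = 0.0335 by edgeR's quasi-likelihood test). With any other retina left out it did not pass (adjusted p from 0.0598 to 0.220).

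Grin2a and Grin2b encode the subunits that give NMDA receptors their mature and immature kinetics in much of the brain. The ratio of Grin2a to Grin2b normalized counts was 0.599, 0.667 and 1.13 in the TKO retinae and 0.754, 0.675 and 0.763 in the DKO retinae, with the DKO values inside the TKO range. The difference was 0.07 on the log2 scale (two-sided exact permutation p = 1, where 0.1 is the smallest p that 3 against 3 retinae allow). Without TKO replicate 3 the difference was -0.21, so its sign rested on that retina. Both genes were low, at 104 ± 26.2 and 136 ± 38.5 normalized counts in TKO and 90.7 ± 14.6 and 124 ± 12.4 in DKO.

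The delta receptors, which organize synapses rather than respond to glutamate, and the metabotropic glutamate receptors had no gene in the list that passed. Grid1 lay at -0.14 on the log2 scale (standard error 0.126). The 7 metabotropic genes of the list, which are not the whole family, ranged from -0.36 for Grm4 to 0.15 for Grm8, and the interval of each stayed within 1 on the log2 scale. Grm7, found at the release sites of bipolar and amacrine cells, averaged 460.3 ± 75.1 normalized counts in TKO and 491 ± 16.7 in DKO (log2 fold change -0.09, standard error 0.124). Grm8 was higher and Grm2 lower in every TKO retina than in every DKO retina, with differences too small to pass the test (adjusted p = 0.257 and 0.326).

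Among the 12 GABA-A alpha, beta, gamma and delta subunit genes, Gabra2 fell. The alpha subunits set where a GABA-A receptor is placed and how it responds. Gabra2 lies on chromosome 5 from 70957597 to 71095849 (minus strand). It was at 361, 581 and 362 normalized counts in the TKO retinae and at 1048, 1009 and 858 in the DKO retinae. The highest TKO retina stayed well below the lowest DKO retina. The log2 fold change was -1.16 (standard error 0.186, adjusted p = 0.00823 by edgeR's quasi-likelihood test), the largest of all receptor genes in either direction and the smallest adjusted p among them. With each retina left out in turn it lay between -1.43 and -1.04 and passed every time (adjusted p between 0.00640 and 0.0424).

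Gabra3, the most abundant per kb of the other alpha subunit genes described, lay at -0.30 (standard error 0.148, adjusted p = 0.197 by edgeR's quasi-likelihood test), and Gabra4 and Gabra5 at -0.27 and -0.66 did not pass either. Gabrb2 had 1333 ± 71.1 and 1392 ± 58.6 normalized counts (log2 fold change -0.06, standard error 0.0764). Gabrd, a subunit of receptors outside synapses, lay at 0.31 (adjusted p = 0.227).

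**Figure D3:**
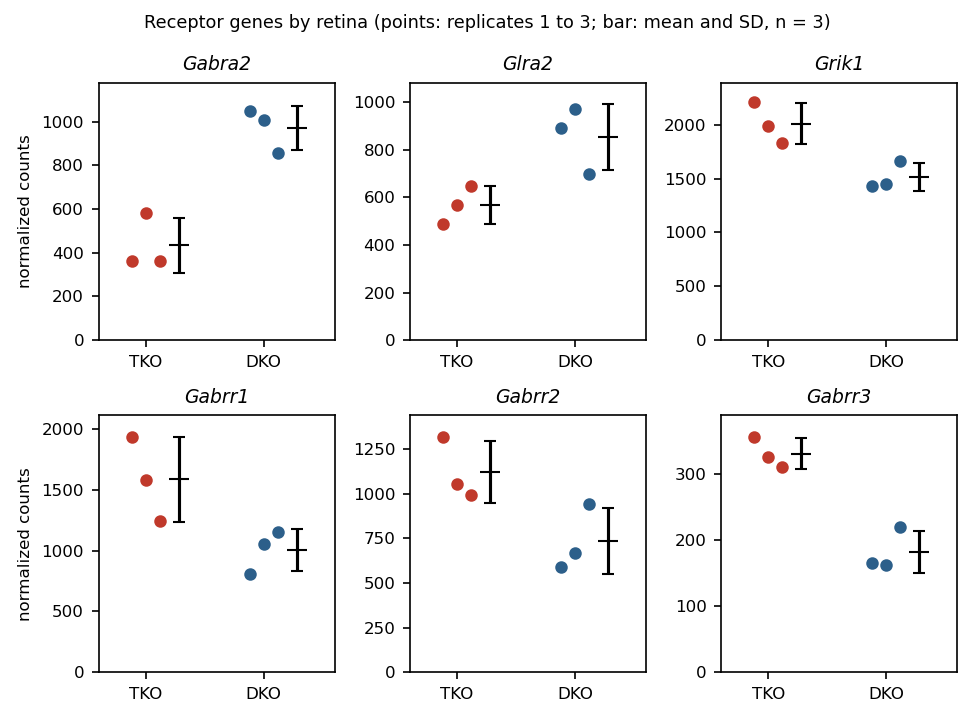
Normalized counts of Gabra2, Glra2, Grik1, Gabrr1 and Gabrr3, which passed the test, and of Gabrr2 in each retina (points, replicates 1, 2 and 3 from left to right), with mean and SD (n = 3) beside them; each axis starts at 0. In none of the 6 genes do the TKO and DKO points overlap, and the gap is widest for Gabra2, where the highest TKO value is 581 and the lowest DKO value 858.

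GABA-A subunit genes lie in clusters, and no neighbour of Gabra2 passed the test. Beside it on chromosome 5 are Gabrg1, Gabra4 and Gabrb1, with log2 fold changes of -0.04 (standard error 0.146), -0.27 (standard error 0.132) and 0.14 (standard error 0.269), none of which passed. On chromosome 7, Gabra5 and Gabrg3 lay at -0.66 and 0.30, and neither passed. Whether Gabra2 differs from its neighbours was not tested. None of the 47 genes lies on chromosome 19, where Hells is.

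Gabra2 is also known to differ between C57BL/6 substrains: C57BL/6J mice carry an intronic change that lowers Gabra2 expression, and a deletion in Nnt, a mitochondrial transhydrogenase gene, that lowers Nnt, whereas C57BL/6N mice carry neither. For this reason Nnt was read, after the values of Gabra2 had been seen. Nnt was at 188, 255 and 248 normalized counts in the TKO retinae and at 405, 494 and 302 in the DKO retinae. The groups did not overlap, and the log2 fold change was -0.80 (standard error 0.197, adjusted p = 0.0291 by edgeR's quasi-likelihood test). The labels name C57BL/6 and the study's methods C57BL/6N, and the substrain makeup of each retina is not given in the sources used here. The part of substrain in the Gabra2 difference was not tested, and if it differed between the groups it cannot be told apart from the loss of Hells.

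**Figure D4:**
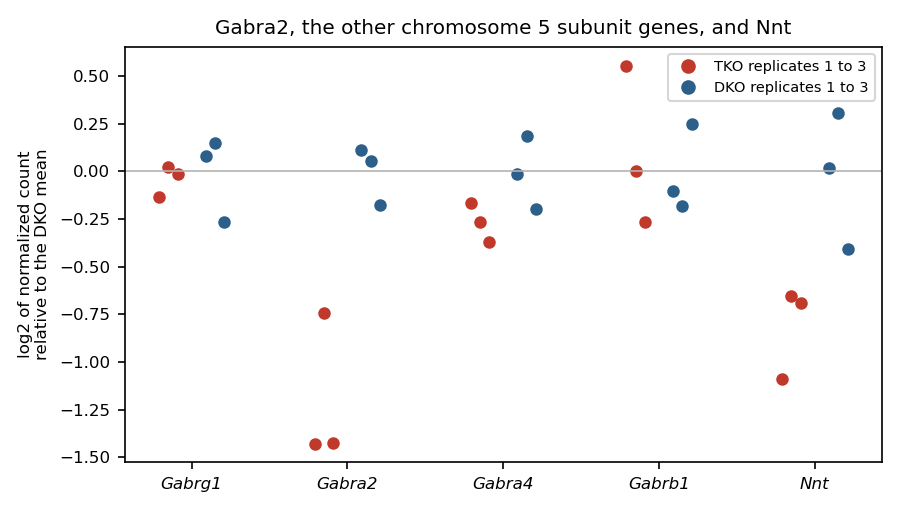
Log2 of the normalized count of each retina relative to the mean of the 3 DKO retinae for Gabra2, for the other receptor genes of its cluster on chromosome 5, and for Nnt. The TKO points of Gabra2 and of Nnt lie below all DKO points of the same gene, while those of Gabrg1, Gabra4 and Gabrb1 overlap with the DKO points.

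The rho subunit genes were the class that was higher in TKO throughout: 2 of the 3, Gabrr3 and Gabrr1, rose, and in all 3 every TKO retina lay above every DKO retina. Over all genes tested, 7.35% rose and 18% had every TKO retina above every DKO retina, and a class of 3 genes, 2 of them neighbours, is too small to set against these shares. No other class had a median log2 fold change as high (0.66). Gabrr1 and Gabrr2 are neighbours on chromosome 4, from 33132521 to 33163588 and from 33062999 to 33095865, and Gabrr3 lies on chromosome 16 from 59407332 to 59464504, all on the plus strand. Since these genes were higher together, the bases before their annotated starts are shown, with that of Gabra2, the gene that fell most, for comparison. They are from RefSeq promoters (GRCm38.p6), written 5′ to 3′ on the strand of the gene and ending at the base before its annotated start. Gabra2 lies on the minus strand. Capitals mark the letters TAATCC, or GGATTA on the other strand, the core motif bound by the homeobox factors OTX2 and CRX of photoreceptors and bipolar cells.
Gabrr1, chr4:33132306-33132520: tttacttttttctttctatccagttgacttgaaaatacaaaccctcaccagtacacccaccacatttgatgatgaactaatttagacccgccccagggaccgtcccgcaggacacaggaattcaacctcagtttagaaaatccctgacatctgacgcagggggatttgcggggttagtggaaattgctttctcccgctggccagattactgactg
Gabrr2, chr4:33062862-33062998: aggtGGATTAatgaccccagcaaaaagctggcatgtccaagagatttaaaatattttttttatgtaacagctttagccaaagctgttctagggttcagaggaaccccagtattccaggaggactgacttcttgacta
Gabrr3, chr16:59407132-59407331: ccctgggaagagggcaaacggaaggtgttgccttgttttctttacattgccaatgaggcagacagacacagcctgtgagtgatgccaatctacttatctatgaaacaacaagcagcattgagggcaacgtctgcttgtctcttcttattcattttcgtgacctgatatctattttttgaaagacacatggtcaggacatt
Gabra2, chr5:71095850-71096099: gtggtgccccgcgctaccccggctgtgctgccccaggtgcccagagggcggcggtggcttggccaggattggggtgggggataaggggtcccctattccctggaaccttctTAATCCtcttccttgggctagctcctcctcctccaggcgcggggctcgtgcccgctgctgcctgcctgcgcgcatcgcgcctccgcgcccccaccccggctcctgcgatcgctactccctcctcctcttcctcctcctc

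The motif was present in 1 of the 3 rho windows and in that of Gabra2, and these were the only 2 of the 31 receptor genes with a RefSeq window that held it in the 250 bases before the RefSeq start. For the rho genes that start lies downstream of the annotated one, so the search ran past the bases shown. Of the 38 windows of receptor genes 5.26% held the motif, and of all 32851 windows 2054 (6.25%).

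Gabrr3 was at 357, 325 and 310.5 normalized counts in the TKO retinae and at 166, 162 and 219 in the DKO retinae. The lowest TKO retina stood well above the highest DKO retina. The log2 fold change was 0.86 (standard error 0.147, adjusted p = 0.0101 by edgeR's quasi-likelihood test). A predicted gene on the other strand, 1700022E09Rik, covers 279 bp (6.53%) of its exons.

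Gabrr1 was at 1935, 1582 and 1239 normalized counts in the TKO retinae and at 810.3, 1056 and 1148 in the DKO retinae. The groups came close, at TKO replicate 3 and DKO replicate 3, without overlap. The log2 fold change was 0.66 (standard error 0.178, adjusted p = 0.0396 by edgeR's quasi-likelihood test).

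Gabrr2 was at 1318, 1056 and 989 normalized counts in the TKO retinae and at 589, 668 and 940.2 in the DKO retinae. The same pair of retinae came closest. Its log2 fold change of 0.61 was almost that of Gabrr1, with a standard error of 0.180, and its adjusted p of 0.0516 by edgeR's quasi-likelihood test missed the threshold. It passed with DESeq2, and with edgeR without TKO replicate 3 (adjusted p = 0.0402) or without DKO replicate 3 (adjusted p = 0.00725). Without TKO replicate 1, TKO replicate 2, DKO replicate 1 or DKO replicate 2 it did not pass (adjusted p from 0.113 to 0.169 by edgeR).

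The groups overlapped in the share of each rho gene. Gabrr1 made up 53.0% ± 2.58 of the summed rho counts per kb in TKO and 53.1% ± 3.18 in DKO. Gabrr2 made up 41.0% ± 2.03 and 41.7% ± 2.91, and Gabrr3 6.02% ± 0.669 and 5.18% ± 0.562 (SD, n = 3 each).

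The GABA-B receptor needs both its subunits, and neither gene passed. Gabbr1 had nearly the same value in every retina, 3628, 3541 and 3641 normalized counts in the TKO retinae and 3637, 3548 and 3587 in the DKO retinae. Its log2 fold change was 0.01, with a 95% interval from -0.16 to 0.17, and its sign depended on the scaling. Gabbr2 had 1128 ± 198 and 1286 ± 68.7 normalized counts (log2 fold change -0.19, standard error 0.124, adjusted p = 0.324).

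Of the 5 glycine receptor genes, Glra2 fell. Its product is the alpha subunit typical of the immature nervous system, which also persists in the adult retina, and the gene lies on chromosome X from 165129017 to 165327393 (minus strand). Glra2 was at 489.7, 567 and 647 normalized counts in the TKO retinae and at 891, 972 and 699 in the DKO retinae. The groups did not overlap, with TKO replicate 3 and DKO replicate 3 again nearest to each other. The log2 fold change was -0.59 (standard error 0.145, adjusted p = 0.0290 by edgeR's quasi-likelihood test). Glrb, the beta subunit that anchors glycine receptors at synapses, had 1364 ± 123 and 1439 ± 90.1 normalized counts (log2 fold change -0.08, standard error 0.0916). Glra1, the alpha subunit of mature glycine receptors, had 229 ± 14.9 and 193 ± 40.5 (log2 fold change 0.24, standard error 0.165, adjusted p = 0.339). Glra4 did not overlap between the groups, at 76.0 ± 12.1 and 54.7 ± 2.76, and did not pass (log2 fold change 0.47, adjusted p = 0.142).

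Per kb of exon, the shares of Glra1, Glra2 and Glra4 among the glycine alpha subunits did not overlap between the groups, of which no test was made. Glra2 led in every retina, with 52.3% ± 1.18 in TKO and 64.9% ± 5.69 in DKO. The share of Glra1 was 29.1%, 27.7% and 26.21% in the TKO retinae and 16.6%, 15.9% and 26.15% in the DKO retinae. DKO replicate 3 thus lay just below the lowest TKO retina, and far from the other DKO retinae.

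The ratio of Glra1 to Glra2 normalized counts, not scaled by length, was 0.438, 0.403 and 0.378 in the TKO retinae and 0.188, 0.177 and 0.343 in the DKO retinae, a difference of 0.85 on the log2 scale (two-sided exact permutation p = 0.1, the smallest that 3 against 3 retinae allow). The ratio did not overlap between the groups, and a design of this size cannot reach a p of 0.05. Without DKO replicate 3 the Glra1 to Glra2 difference was 1.15.

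**Figure D5:**
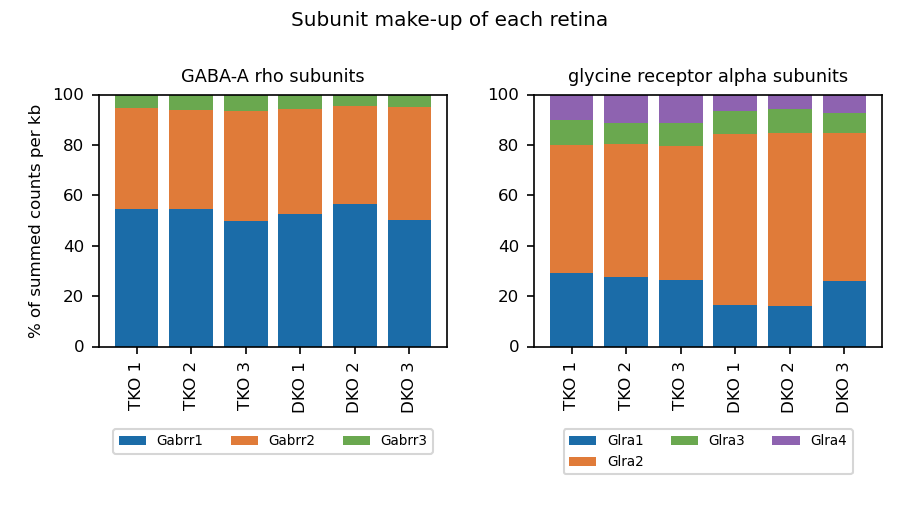
Share of each subunit gene in the summed normalized counts per kb of its class, in percent, for GABA-A rho and glycine receptor alpha subunits in each of the 6 retinae. The Glra2 share is lower in all TKO retinae than in all DKO retinae, while the rho shares overlap between the groups.

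The calls of Grik1, Gabrr1 and Glra2 depended on the set of retinae. Each of them failed the threshold when TKO replicate 1, TKO replicate 2, DKO replicate 1 or DKO replicate 2 was left out, with adjusted p from 0.0891 to 0.119 by edgeR's quasi-likelihood test and the direction kept. Gabrr3 failed it without DKO replicate 2 (adjusted p = 0.0510). The number of receptor genes called therefore ran from 1 without DKO replicate 2 through 2 without TKO replicate 1, TKO replicate 2 or DKO replicate 1 to 7 without DKO replicate 3 and 10 without TKO replicate 3. The share of all genes called moved in the same way, from 3.88% without DKO replicate 2 through 4.25% to 7.80% in the next 3 fits to 19.2% without DKO replicate 3 and 21.4% without TKO replicate 3. Scaling by total counts alone moved the median of all genes from -0.01 to -0.17. Under it 4 receptor genes were called, Gabrr3 higher and Gabra2, Glra2 and Grin2d lower, beside 20.0% of all genes. Grik1 and Gabrr1 then did not pass (adjusted p = 0.0707 and 0.0578 by edgeR's quasi-likelihood test). By Xist and Y-linked counts, TKO replicate 1 and DKO replicates 1 and 2 were male. With a term for sex, added after the data had been seen, 2 receptor genes passed, Gabra2 and Gabrr3, beside 12.9% of all genes. Of the 4 genes on chromosome X, Gabra3, Gria3, Glra2 and Glra4, Glra2 then had an adjusted p of 0.0691.

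The genes around the receptors were read as 73 genes of synthesis, release, uptake, assembly and anchoring, of which 6 were higher and 6 lower. These 12 calls among 73 genes are close to the share of all genes called (16.6%, with 7.35% higher and 9.2% lower), and the counts by list below are to be read against it. In the list for glutamate synthesis, release and uptake, 3 of 10 rose and none fell. These included Slc17a7, the vesicular glutamate transporter of photoreceptors and bipolar cells, at 1.34 on the log2 scale (adjusted p = 0.0162 by edgeR's quasi-likelihood test), and Glul, the glutamine synthetase of Muller glia, at 1.15 (adjusted p = 0.00548). Of the 10 genes for GABA and glycine synthesis, release and uptake, none passed, and their median was -0.14.

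Of 23 genes for auxiliary subunits and receptor assembly, 1 rose and 4 fell. Ric3, a chaperone of acetylcholine receptors, rose (log2 fold change 0.33). Shisa6, which keeps AMPA receptors at the synapse, fell (log2 fold change -0.57, adjusted p = 0.0210 by edgeR's quasi-likelihood test), as did Cnih2, an AMPA receptor auxiliary protein (-0.50, adjusted p = 0.0226), Neto2, which is one for kainate receptors (-0.45), and Kctd12, which is one for GABA-B receptors (-0.59). Of 28 scaffold genes, Dlg1 and Dlg4, which encode postsynaptic scaffold proteins, rose (0.37 and 0.52), and Cbln1, a ligand of delta receptors, and Nlgn1, a postsynaptic adhesion molecule, fell (-0.59 and -0.38). Neither chloride transporter gene passed, with log2 fold changes of 0.26 for Slc12a5 and -0.02 for Slc12a2.

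Markers of retinal cell types were read beside the receptor genes, and the number that passed varied between the lists. These numbers, also in the next paragraph, are to be read against the shares of all genes, 7.35% higher and 9.2% lower. In lists this short, 1 gene called is not read as a difference of that cell type. All 11 rod markers were higher in TKO (median log2 fold change 1.78), and their summed normalized counts ran from 374998 to 755661 in TKO and from 128278 to 241854 in DKO. The lowest TKO sum was that of replicate 3 and the highest DKO sum that of replicate 3, the order seen for several receptor genes. Of 12 bipolar markers, 4 were higher, Otx2, Nyx, Cabp5 and Grik1, which is itself a receptor gene, and the sums ran from 19922 to 27286 and from 17381 to 20365. Prkca, among the most abundant bipolar markers, lay at 0.05 and did not pass. Of 12 amacrine markers none passed (median -0.08), with sums from 30289.5 to 35249 in TKO and from 33597 to 36449.8 in DKO; Gad1 and Calb2, the most abundant, lay at 0.13 and 0.09. Of 10 ganglion cell markers 1 was higher, with Nefl and Nefm at 0.22 and 0.20, and of 6 horizontal cell markers 1 was higher.

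Outside these classes, all 10 markers of dividing cells were lower (median -2.65, sums from 924 to 2582 in TKO and from 5833 to 12476 in DKO), as were 6 of 9 microglia markers (median -1.08, sums from 1820 to 3246 and from 3820 to 5762). Of 8 Muller glia markers 3 were higher and 1 lower, of 9 cone markers 2 were higher, of 6 gliosis markers 1 was lower, and no astrocyte marker of 4 passed. Lens markers, of which 6 of 13 were higher, summed to between 681 and 4178 in TKO and between 160 and 174 in DKO, where Cryba2 and Lim2 were at 0 in at least 1 library, and 1 of 8 pigment epithelium markers was higher. The part of these shifts in the differences of the receptor genes was not tested.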

How the data were processed

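RNA was measured in 3 TKO and 3 DKO retinae, 1 stranded mRNA library each, and grouped by the genotype in the labels. The authors deposited raw counts of read pairs per gene symbol. According to the study's methods the reads were aligned to GRCm38 with STAR, with multiple alignments allowed, and counted with HTSeq, whereas the submitters' processing notes name TopHat2 and featureCounts; the strand setting is not given in the sources used here. Overlapping genes are therefore less certain.

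Here, genes with a count sum under 10 were removed and 16904 genes were fitted in edgeR 4.0.16 (R 4.3.3; TMM, quasi-likelihood F test, no covariates) with Benjamini-Hochberg adjustment over all of them. Standard errors were taken from the fold change and its F statistic. The steps were tested on simulated data. Ratios used a two-sided exact permutation test. Exon lengths and positions are from a GENCODE annotation of GRCm38. Counts of same-genotype libraries differed beyond sampling noise (chi-square over its degrees of freedom 8.61 to 25.3), so none was treated as a repeat of another. Alternatives were DESeq2 1.42.0, other scalings and filters, robust dispersions, a replicate block, other thresholds and each retina left out. Limits from counts of 0 cover counting error only.

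Members and gene lists were chosen with earlier results of these data known. Named were Hells, Rb1 and Rbl1, every receptor gene that passed, the 2 most abundant per kb of each class, the genes of the ratios, genes at 0, the 2 genes of smallest adjusted p per direction in each transmission list, and the 2 most abundant markers of lists discussed; others are named to account for all members. Some genes that these rules name are not reported here, and the counts over all members include them.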

Additional observations from a re-analysis of the deposited data

How the results depend on the processing

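The count of receptor genes with an adjusted p of at most 0.05 was 6 as reported, beside 16.6% of all genes. With Gabrr2 added it was 7 with DESeq2 (19.1% of all genes), without the filter on low counts (14.9%) or with filterByExpr (19.4%). The count stayed at 6 with RLE (16.7%) or upper-quartile scaling (16.7%) or at least 10 counts in every library (19.2%). Robust dispersions gave 5 (16.8%), total counts 4 (20.0%), a threshold of 0.1 gave 8 (25.7%) and 0.01 gave 1 (3.32%). It was 2 with a term for sex (12.9% of all genes), which was chosen after seeing the data. With the replicate number as a block it was 0 (Gabra2 at an adjusted p of 0.0534 by edgeR), and 0.627% of all genes passed. The deviations of same-numbered retinae correlated at 0.05, -0.05 and -0.16. These correlations give no sign of pairing by number, but they cannot exclude it. With 1 retina left out the count ran from 1 to 10, beside 3.88% to 21.4% of all genes. The count by all 3 criteria was 1 as reported (6.35% of all genes) and 0 under the block (0.532%). When a fold change over 1.5 was tested directly it was 0 (2.63%). Between 1 and 2 were called with 1 retina left out (2.82% to 8.94%). Of the 73 other transmission genes 12 were called as reported (16.6% of all genes), 17 with DESeq2 (19.1%) and 15 with total counts (20.0%). The 15 were 2 higher and 13 lower. Between 1 and 18 were called with 1 retina left out, beside 3.88% to 21.4% of all genes. Of the 117 marker genes 47 were called, and between 16 and 62, beside the same shares of all genes, with 1 retina left out. The Glra1 to Glra2 difference then ran from 0.67 to 1.15 and that of Grin2a to Grin2b from -0.21, without TKO replicate 3, to 0.25. Paired by number, the mean differences stay at 0.85 and 0.07 by arithmetic, so pairing is no check of them. The smallest p that an exact permutation test of the pairs could reach is 0.25. Fold changes near 0 turned sign: with total counts Grin1 was at -0.077, Gabbr1 at -0.15 and Grin2b at -0.032; Gabbr1 was at -0.027 with upper-quartile scaling, at -0.0067 with at least 10 counts in every library, and between -0.0037 and 0.018 with 1 retina left out, where Grin2b ran from -0.13 to 0.25. The cause was not tested. The interval of Gabra5, the gene with the smallest count sum, ran from -1.39 to 0.07.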

Other observations

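Some genes with symbols like those of the receptor genes, which the symbols chosen do not cover, were read after their values had been seen. Grina, which encodes a membrane protein named for its likeness to an NMDA receptor-associated protein, was at 7698, 7525 and 5738 normalized counts in the TKO retinae and at 3802, 3972 and 4763 in the DKO retinae. The groups did not overlap, and its log2 fold change was 0.74 (standard error 0.141, adjusted p = 0.0127 by edgeR's quasi-likelihood test). Grid2ip did not pass (log2 fold change -0.18, adjusted p = 0.677 by the same test). The GABA-A theta and epsilon subunit genes, Gabrq and Gabre, were low, at 38.3 ± 6.44 and 3.45 ± 1.33 normalized counts in TKO and 69.4 ± 20.0 and 8.32 ± 3.60 in DKO (SD, n = 3 each). Neither passed the test (log2 fold change -0.85 and -1.25, adjusted p = 0.0745 and 0.157 by edgeR's quasi-likelihood test), though the groups did not overlap in either gene.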
